A study of Homo sapiens with 45 samples.

Results

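The integrated stress response is described here through 10 genes: the 4 kinases that phosphorylate the alpha subunit of the translation initiation factor eIF2 (EIF2AK1, EIF2AK2, EIF2AK3 and EIF2AK4), the transcription factor ATF4, and 5 genes that lie downstream of it (DDIT3, ASNS, TRIB3, CHAC1 and SESN2). The genes were chosen by name, and all 10 have a row among the 23045 rows of the deposited tables. They were followed in 45 single cells of H1, a human embryonic stem cell line grown on Matrigel in mTESR1 medium and taken at passage 40. Each cell was a Smart-Seq2 library of its own. The 12 fixed cells prepared with FRISCR, a method for recovering RNA from single fixed cells, carried the labels Fixed_PLRC and DAPI+. The 15 live FRISCR cells were labelled Live_PLRC and DAPI-. The 7 fixed cells lysed with Triton X-100 were labelled Fixed_RLT and DAPI+, and the 11 live Triton cells Live_RLT and DAPI-. No label names more than 1 culture, so every group stands for 1 culture of 1 line, its cells are not replicates of a condition, and no test between groups was possible.

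In the integrated stress response, different insults are sensed by different kinases: HRI (EIF2AK1) responds to haem shortage and mitochondrial stress, PKR (EIF2AK2) to double-stranded RNA, PERK (EIF2AK3) to unfolded protein in the endoplasmic reticulum, and GCN2 (EIF2AK4) to uncharged tRNA. All of them phosphorylate eIF2, which lowers translation in general while upstream reading frames in the ATF4 messenger allow more ATF4 protein to be made. ATF4 pairs with C/EBP family proteins on C/EBP-ATF response elements and raises genes of amino acid synthesis, amino acid transport and tRNA charging. The kinases and ATF4 are controlled largely at the level of protein, so the RNA levels given here describe messenger abundance and not kinase activity.

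The response element has the core TGATGNAA, where N is any base. It was looked for on both strands from 250 bases before to 50 bases after the annotated start, in RefSeq promoters of GRCh38.p14, which is a later build than that of the expression tables. It was present in 2 of the 9 members with a promoter entry, ASNS and CHAC1, and in 3.14% of 35116 promoters. EIF2AK1 had no entry. The 250 bases before each start are shown because these are the only members with the core in that window. As described below, their levels were also correlated over the 38 cells outside the fixed Triton group (Pearson 0.47), though less so within live FRISCR cells (0.24). ASNS with SESN2, which had no core in this window, was at 0.41 and 0.42 in the same cells. Whether the core has a part in these correlations was not tested. Capitals mark the core. The ASNS promoter lies at chr7:97872409-97872658 on the minus strand and the CHAC1 promoter at chr15:40953221-40953470 on the plus strand.
ASNS: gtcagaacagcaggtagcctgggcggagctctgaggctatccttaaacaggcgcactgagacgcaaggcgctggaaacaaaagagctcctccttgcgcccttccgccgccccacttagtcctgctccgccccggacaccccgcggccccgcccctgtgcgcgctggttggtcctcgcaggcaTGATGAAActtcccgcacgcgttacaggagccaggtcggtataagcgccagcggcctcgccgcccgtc
CHAC1: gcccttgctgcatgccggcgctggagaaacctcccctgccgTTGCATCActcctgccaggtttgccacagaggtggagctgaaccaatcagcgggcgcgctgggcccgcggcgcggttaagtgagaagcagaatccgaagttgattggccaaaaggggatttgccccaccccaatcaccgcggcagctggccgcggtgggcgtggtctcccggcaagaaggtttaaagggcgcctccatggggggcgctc
In ASNS the core TGATGAAA read in the direction of the gene and began 68 bases before the start. It lies in the nutrient-sensing response element through which ATF4 is known to act on this gene. In CHAC1 the core read on the opposite strand, as TTGCATCA on the strand shown, and began 209 bases before the start. The stricter form TGATGCAA was present only in CHAC1 among these 9 promoters, against 0.772% of all promoters. A match describes the letters in this window, and the absence of one says nothing about sites elsewhere in a gene.

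Total counts per cell ran from 3388417 to 6594043, and no 2 cells had identical columns. CPM, a gene's counts scaled to a total of 1000000, was used for each gene across cells, and the deposited TPM, which also allows for transcript length, for levels between genes. After thinning to 1000000 counts, the cells had a median of 8924.5 genes detected in fixed FRISCR, 9066 in live FRISCR, 5086 in fixed Triton and 9616 in live Triton. The row named TVAS5 took a median of 0.773%, 0.826%, 26.3% and 6.90% of counts in the same order, and rows named for ribosomal RNA 0.00519%, 0.00428%, 9.00% and 1.26%. All 8 stem cell markers, among them POU5F1, LIN28A and TDGF1, had counts in every group, and their summed level ran from 3595 to 5675 CPM in fixed FRISCR cells, from 3034 to 6390 in live FRISCR cells, from 911 to 2226 in fixed Triton cells and from 3334 to 4983 in live Triton cells. The mesoderm markers T, MIXL1 and MESP1, the endoderm markers SOX17, FOXA2 and GATA4, the trophoblast markers CDX2 and CGA and the fibroblast markers COL3A1 and DCN were at 0 in all 45 cells. Other members of these lists had counts, among them AFP at 6.70, 6.09, 33.7 and 6.78 CPM and KRT7 at 23.4, 19.9, 0 and 16.6 CPM in the 4 groups as ordered above. Of the fibroblast markers, COL1A1, COL1A2 and THY1 had counts in every group, and the list's summed level ran from 189.9 to 839 CPM in fixed FRISCR cells, from 343 to 1156 in live FRISCR cells, from 35.3 to 524.5 in fixed Triton cells and from 302.5 to 1544 in live Triton cells. The neural markers, mostly FABP7 and NES, summed to between 17.2 and 223, 8.73 and 133, 0 and 169.6, and 23.9 and 85.4 CPM in the same order. The part of these markers in the folds below was not tested. Each preparation came in 2 library sets that the titles number, and set values are given for the results that turn on them.

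**Figure D1:**
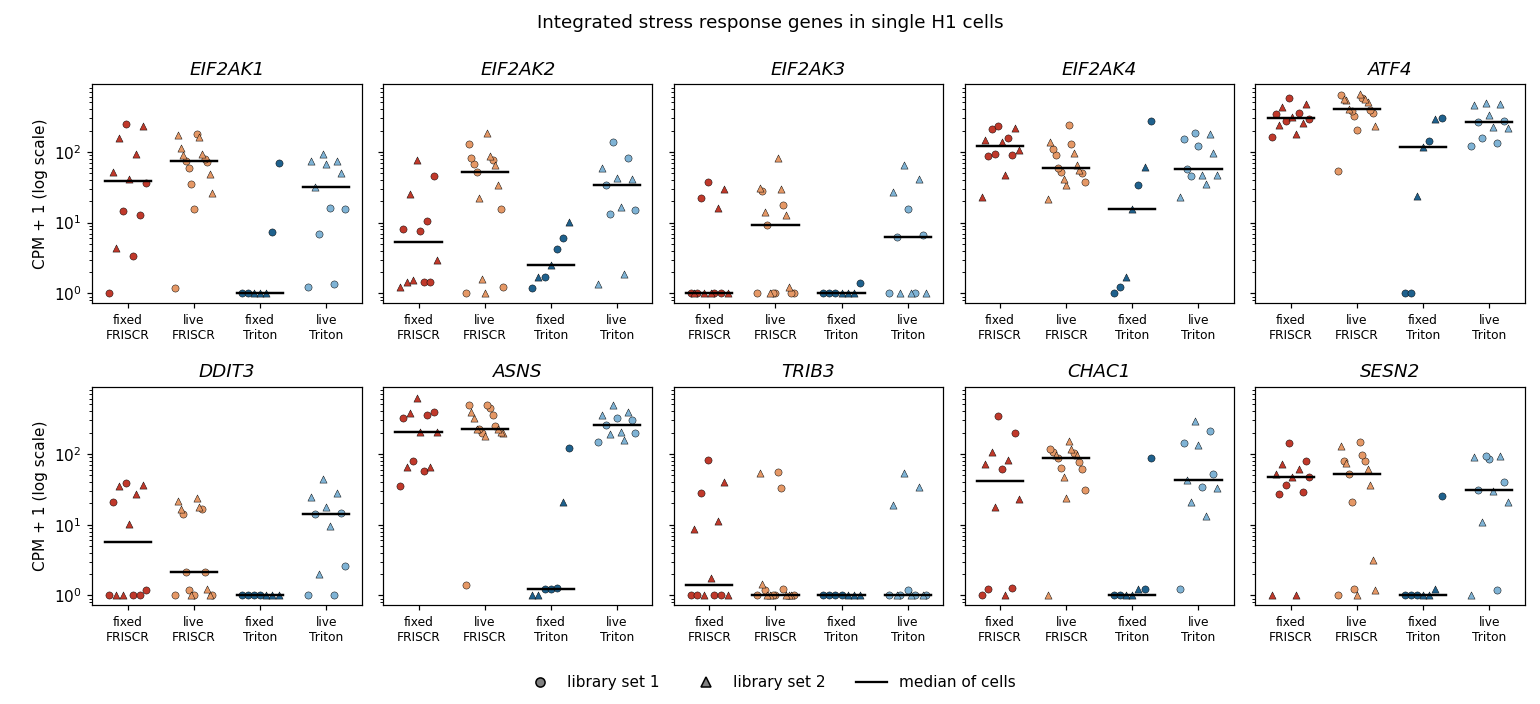
Level of each of the 10 genes in every cell as CPM + 1 on a log scale, with 1 symbol per cell, circles for library set 1, triangles for library set 2 and a bar at the median. ATF4 and EIF2AK4 were found in all 38 cells outside the fixed Triton group, and DDIT3 and TRIB3 are at 0 in all 7 fixed Triton cells.

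ATF4 was the most abundant member per length in all 4 groups. Its mean was 377 ± 138 TPM in fixed FRISCR cells, 529.9 ± 209.8 TPM in live FRISCR cells, 108 ± 112 TPM in fixed Triton cells and 358 ± 167 TPM in live Triton cells (SD over cells, n = 12, 15, 7 and 11). ASNS, which makes asparagine from aspartate, was next in every group, with 181 ± 142, 237 ± 117, 13.4 ± 30.0 and 231 ± 92.0 TPM in that order. CHAC1, which breaks down glutathione, followed in fixed FRISCR, live FRISCR and live Triton cells with 82.0 ± 119, 89.7 ± 46.8 and 98.9 ± 104 TPM. In live FRISCR cells these first 3 genes were each separated from the next by more than 1 SD of either neighbour. The other 7 genes had means between 5.19 and 34.6 TPM there and neighbours in that order lay within 1 SD of each other.

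Among the kinases, the live FRISCR order by mean TPM was EIF2AK2 (34.6 ± 33.6), EIF2AK1 (30.4 ± 20.7), EIF2AK4 (24.7 ± 17.5) and EIF2AK3 (5.19 ± 7.68). In fixed FRISCR cells the order was EIF2AK4 (36.5 ± 19.6), EIF2AK1 (25.3 ± 30.8), EIF2AK2 (8.59 ± 13.4) and EIF2AK3 (2.81 ± 4.45). PERK was the lowest of the 10 members in both, and in live Triton cells as well at 5.15 ± 7.62 TPM, where the other 3 kinases had 14.5 to 27.4 TPM. Neighbours in each of these orders lay within 1 SD of each other, except EIF2AK4 and EIF2AK3 in live FRISCR cells.

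The members differed in how evenly cells carried them. ATF4 and EIF2AK4 had at least 1 count in every cell of both live groups and of the fixed FRISCR group. After thinning to a common depth, ASNS was also found in all 38 of these cells, whereas EIF2AK3 was found in 4 of 12 fixed FRISCR, 8 of 15 live FRISCR and 6 of 11 live Triton cells. TRIB3, a pseudokinase that restrains ATF4 and CHOP, had a count in 6 of 12, 4 of 15 and 3 of 11 cells, the fewest of any member over the 38 cells together, although EIF2AK3 had fewer in fixed FRISCR. The exact 95% binomial interval of its share in live FRISCR cells was 7.79% to 55.1%. Over all members, 89 of 120 member and cell pairs in fixed FRISCR had a count after thinning, 116 of 150 in live FRISCR, 24 of 70 in fixed Triton and 89 of 110 in live Triton. Of the 450 values before thinning, 347 were above 0, and 43 of these (12.4%) were only 1 to 5 counts.

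The spread over cells followed the same line. The coefficient of variation of ATF4 over cells was 0.38 in fixed FRISCR and 0.41 in live FRISCR cells. It was 1.79 and 2.12 for TRIB3, and 1.58 and 1.49 for EIF2AK3. A single cell supplied 53.0% of all TRIB3 counts in fixed FRISCR cells and 40.4% in live FRISCR cells. For CHAC1 the spread was 1.38 in fixed FRISCR against 0.52 in live FRISCR cells, and fixed FRISCR replicate 6 alone, at 348 CPM, supplied 37.4% of the group's counts.

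Taken cell by cell, the 10 members added up to between 471 and 1461 CPM in fixed FRISCR cells (median 851), between 185 and 1428 CPM in live FRISCR cells (median 1121), between 7.44 and 519 CPM in fixed Triton cells (median 154) and between 538 and 1526 CPM in live Triton cells (median 868). The lowest live FRISCR cell was replicate 1, described below. The number of members at 5 CPM or more ran from 6 to 9 in fixed FRISCR cells, 4 to 9 in live FRISCR cells, 1 to 5 in fixed Triton cells and 5 to 10 in live Triton cells. The fixed FRISCR range lay wholly above the fixed Triton range. So did the range of genes detected per cell after thinning, 8012 to 10005 against 4121 to 6637.

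Cells that carried much ASNS tended to carry much CHAC1, though less so within the live FRISCR group. Over the 38 cells outside the fixed Triton group, with the mean of each group and library set subtracted from log2(CPM + 1), the 2 genes had a Pearson correlation of 0.47 and a Spearman correlation of 0.61. The highest of the 45 pairs of members was ATF4 with ASNS, at Pearson 0.73 and Spearman 0.48. The median over all 45 pairs was 0.05. Within live FRISCR cells alone, ASNS with CHAC1 had a Pearson correlation of 0.24 and ATF4 with ASNS one of 0.81. These correlations describe cells that share a culture and 2 library sets, and carry no test.

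Live FRISCR replicate 1 stood apart in this comparison. It held 52.0 CPM of ATF4, the least of the 15 live FRISCR cells, with 0.391 CPM of ASNS, 0.195 CPM of EIF2AK1 and no count of SESN2, DDIT3 or EIF2AK3. CHAC1 (30.1 CPM), EIF2AK2 (51.6 CPM) and EIF2AK4 (50.2 CPM) were present in the same cell, and 8501 genes were detected in it, inside the range of its group. Without this cell the correlation of ATF4 with ASNS was 0.43 over 37 cells and that of ASNS with SESN2 was 0.26 instead of 0.41. That of ASNS with CHAC1 was then 0.69, the highest of the 3. EIF2AK1 with ASNS changed sign, with 0.28 over 38 cells and -0.26 over 37.

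**Figure D2:**
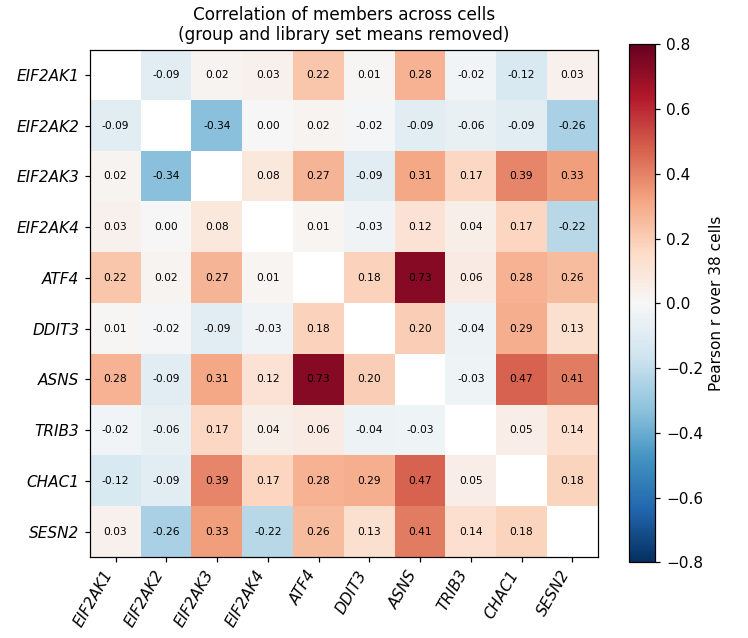
Pearson correlation of each pair of the 10 genes over 38 cells, computed on log2(CPM + 1) after the mean of each group and library set was removed. ATF4 with ASNS (0.73) and ASNS with CHAC1 (0.47) are the highest squares, and the pairs among the 4 kinases lie between -0.34 and 0.08.

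The genes most like ASNS among 6841 candidates of at least 20 CPM were WARS, the tryptophanyl-tRNA synthetase, and SHMT2, the mitochondrial serine hydroxymethyltransferase, with correlations of 0.85 and 0.80 over 38 cells. GPATCH4 came next at 0.77. Without live FRISCR replicate 1, which had 0.195 CPM of WARS and 46.5 CPM of SHMT2, the values were 0.56 for WARS, 0.77 for SHMT2 and 0.17 for GPATCH4. The genes most like CHAC1 were SHMT2 (0.74), CHD1L (0.63) and OVCA2 (0.59), and without that cell SHMT2 stood at 0.81. Over the 37 cells every pair among ASNS, CHAC1 and SHMT2 had a correlation of at least 0.69. SHMT2 was picked for its high correlation with both genes in these cells, so its values are no separate support for a shared pattern. The residual level of ASNS had a correlation of only 0.07 with the number of genes detected per cell, and that of CHAC1 -0.14.

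For ATF4 the most like genes were ASNS (0.73), MYBBP1A (0.67) and ICMT (0.65), all of which were lower, at 0.43, 0.49 and 0.23, without live FRISCR replicate 1. SESN2, which restrains mTORC1 when leucine is short, was most like C7orf44 (0.63), STC2 (0.56) and DCLRE1C (0.55). Without the same cell these were 0.68, 0.50 and 0.49. The secreted protein STC2 is known as an ATF4 target. Like every most-like gene named here, it was picked for its high correlation in these cells and is no separate support for a shared pattern. EIF2AK1 was most like GLYR1 (0.71), DPYSL2 (0.67) and USP34 (0.63), and without live FRISCR replicate 1 these were 0.65, 0.56 and 0.49. EIF2AK2 was most like SAMD4B (0.60), ABCC5 (0.58) and ZNF317 (0.58), and EIF2AK4 was most like BNIP2 (0.61), ALG3 (0.58) and KIAA1468 (0.55). DDIT3, which encodes the transcription factor CHOP, was most like GNG4 (0.61), RTN3 (0.56) and C17orf42 (0.55). EIF2AK3 and TRIB3 had counts in fewer than 60% of the 38 cells and were not searched.

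The wider pathway was read through 9 lists with 90 genes in all. The median correlation of ASNS with the 12 measured genes of amino acid and one-carbon synthesis was 0.35, with the 7 of amino acid transport 0.36 and with the 13 of tRNA charging 0.34, against -0.01 over all candidates. Of the 13 tRNA charging genes, 13 lay above that all-gene median. Without live FRISCR replicate 1 the same 3 medians were 0.30, 0.19 and 0.25. With the eIF2 and eIF2B subunits, which are the target of the kinases and its exchange factor, the median was -0.16 over 38 cells and -0.08 without that cell. CHAC1 had medians of 0.25 with the synthesis genes and 0.17 with the tRNA charging genes over 38 cells, and 0.24 and 0.14 without it. For ATF4 itself the tRNA charging median was 0.22 over 38 cells and 0.02 over 37.

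**Figure D3:**
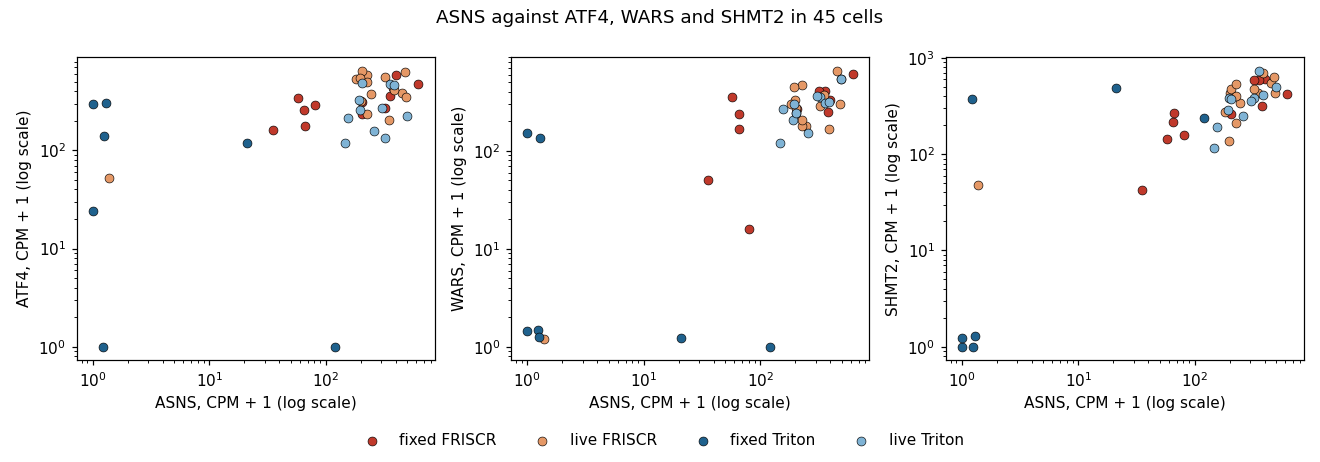
ASNS against ATF4, WARS and SHMT2 in all 45 cells, as CPM + 1 on log axes, coloured by group. Live FRISCR replicate 1 is the orange point at 0.391 CPM of ASNS, and the other cells outside the fixed Triton group lie between 34.5 and 622 CPM of ASNS.

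Fixed and live cells were compared first within FRISCR. The 2 groups also differed in DAPI label and each stands for 1 culture, so fixation cannot be told apart from other differences between them. Of the 10 members, 1 was more than 2-fold lower in fixed FRISCR than in live FRISCR cells, and this was so in both library sets; over the 10210 genes that averaged 5 CPM or more across the groups, 9.95% were past that fold, and 4.09% in both sets. None of the members was more than 2-fold higher, where 5.68% of all genes were, and 2.00% in both sets. The median log2 fold of the 10 members was -0.13, against -0.03 over all genes.

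The member past the fold was EIF2AK2 (PKR). Its lowest, median and highest cell had 0.240, 4.34 and 76.1 CPM in fixed FRISCR cells, against 0, 51.6 and 182 CPM in live FRISCR cells. The ranges overlapped, but 11 of the 12 fixed cells lay below the live median. The summed level was 13.1 CPM in fixed FRISCR cells (exact Poisson 95% interval 12.2 to 14.1) and 54.3 CPM in live FRISCR cells (52.7 to 56.1), a log2 fold of -2.05, with -2.39 in set 1 and -1.79 in set 2. Fixed FRISCR replicate 11 held 41.1% of the fixed counts, and without it the log2 fold was -2.71. These intervals, like all those below, cover counting error and not the spread between cells.

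EIF2AK4 (GCN2) lay the other way without passing 2-fold. It had 22.2, 121 and 228 CPM at the lowest, median and highest fixed FRISCR cell and 20.6, 58.8 and 238 CPM at those of the live FRISCR cells. Only 2 of the 12 fixed cells were below the live median, and the log2 fold of the summed level was 0.68, with 0.54 in set 1 and 0.91 in set 2. EIF2AK1 (HRI) had a log2 fold of -0.12, with 0, 37.8 and 245 CPM in fixed FRISCR cells and 0.195, 72.8 and 177 CPM in live FRISCR cells, so that the fixed cells reached both lower and higher. EIF2AK3 (PERK) had 0, 0 and 35.9 CPM in fixed FRISCR cells and 0, 8.32 and 80.1 CPM in live FRISCR cells. Its log2 fold of -0.78 was made of 0.62 in set 1 and -1.69 in set 2, which have opposite signs, and it was past -1 without fixed FRISCR replicate 2, 5 or 8, at -1.01, -1.28 and -1.10.

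ATF4 was at 162, 299.5 and 581 CPM in fixed FRISCR cells, against 52.0, 407 and 647 CPM in live FRISCR cells. Of the 12 fixed cells 9 were below the live median, and the log2 fold was -0.41, with -0.13 in set 1 and -0.66 in set 2. ASNS had 34.5, 204 and 622 CPM in fixed FRISCR cells and 0.391, 227 and 492 CPM in live FRISCR cells, a log2 fold of -0.28. Aside from live FRISCR replicate 1, the fixed cells thus spread more widely around a similar centre. CHAC1 had medians of 41.1 CPM in fixed and 87.7 CPM in live FRISCR cells, although the summed levels, 73.1 and 80.5 CPM, differed by only -0.14 in log2, with 0.28 in set 1 and -0.73 in set 2, which have opposite signs. Without fixed FRISCR replicate 6 that log2 fold was -0.70. SESN2 was close to level, with 48.8 CPM (46.9 to 50.7) summed in fixed FRISCR cells and 51.2 CPM (49.6 to 52.9) in live FRISCR cells.

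DDIT3 and TRIB3 were the rarely detected targets. DDIT3 reached 37.6 CPM in fixed FRISCR cells, with 5 of 12 cells at 0, and 22.7 CPM in live FRISCR cells, with 5 of 15 at 0. Its log2 fold was 0.84, with 1.20 in set 1 and 0.64 in set 2, and it passed 1 when live FRISCR replicate 10 or 13 was left out, at 1.13 and 1.02. TRIB3 reached 82.1 CPM in fixed FRISCR cells, with 6 of 12 at 0, and 55.2 CPM in live FRISCR cells, with 9 of 15 at 0. Its log2 fold of 0.60 rested on single cells: it was -0.34 without fixed FRISCR replicate 3 and 1.23 without live FRISCR replicate 4.

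In the wider lists, 2 of the 5 eIF2 phosphatase genes were past 2-fold lower in fixed FRISCR cells, in both sets, while the median of that list was -0.19. PPP1R15A (GADD34), the stress-induced subunit that takes the phosphate off eIF2, was at 4.98 CPM in fixed and 21.9 CPM in live FRISCR cells, a log2 fold of -2.14 (-1.39 in set 1 and -6.92, from 4 fixed FRISCR counts, in set 2). Its constitutive counterpart PPP1R15B, singled out after its values were seen, was at 13.2 CPM in fixed and 55.5 CPM in live FRISCR cells, a log2 fold of -2.07 (-3.64 and -1.43). The other 3 members of that list of 5, the catalytic subunits, lay between -0.19 and 0.39. None of the 8 eIF2 and eIF2B subunits was past 2-fold, and their median was 0.33.

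The lists of ATF4 targets had 1 or 2 genes each past 2-fold lower in fixed over live FRISCR, where 9.95% of all genes were past that fold. In lists this short, such counts do not set the targets apart from other genes. Of 13 tRNA charging genes, 1 was more than 2-fold lower (LARS, log2 -1.02, in both sets), and 12 lay below the all-gene median. Of the 7 measured transporters 1 was past the fold (SLC7A11, the cystine transporter, -1.18), and of the 13 synthesis genes 1 (ALDH1L2, -1.49). The most abundant genes of these lists were closer to level, with PSAT1 at 867 CPM in fixed and 927 CPM in live FRISCR cells and TARS at 493 and 619 CPM. Among 9 other measured targets of ATF4 and CHOP, 2 were past 2-fold lower, and BCL2L11, which encodes the pro-apoptotic protein BIM, was lowest at -3.79 (1.08 CPM in fixed and 14.8 CPM in live FRISCR cells). ERO1L, an oxidase of the endoplasmic reticulum induced by CHOP, was highest at 0.99. In the other arms of the unfolded protein response 1 of 11 genes was past the fold, with HSPA5, the chaperone BiP, at 919 CPM in fixed and 1056 CPM in live FRISCR cells. No wider list had a member more than 2-fold higher.

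**Figure D4:**
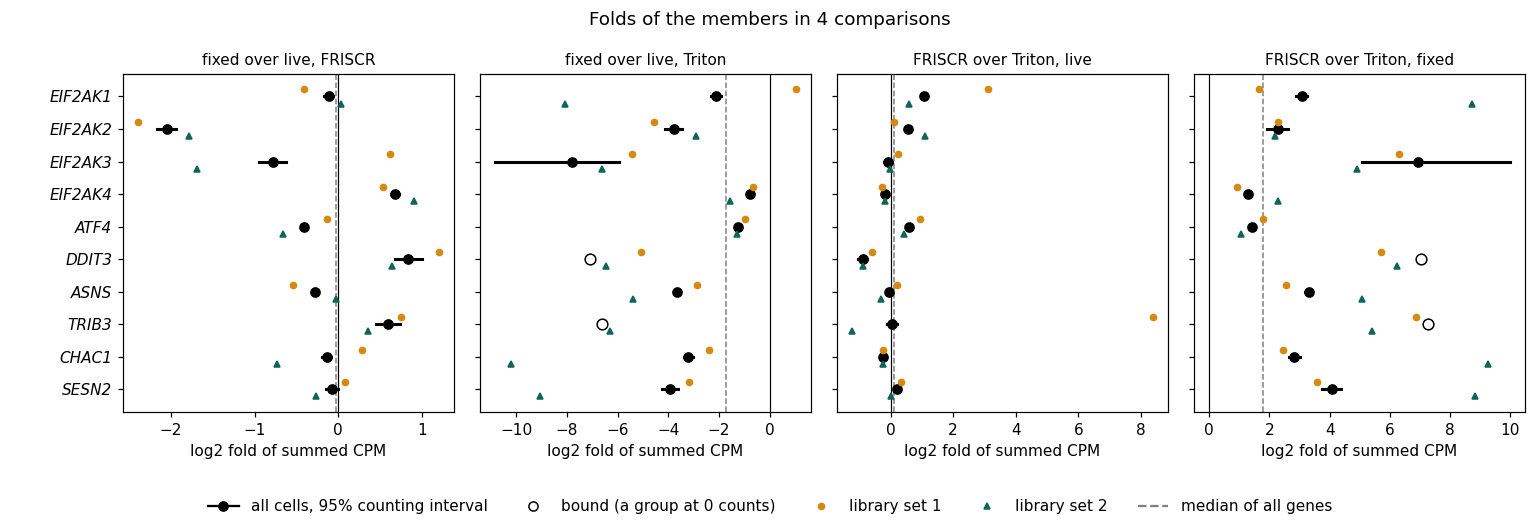
Log2 fold of the summed CPM of each gene in 4 comparisons, with the 95% counting interval, the 2 library sets and a dashed line at the median of all genes. EIF2AK2 stands alone past -1 in fixed over live FRISCR, and all 10 genes lie below 0 in fixed over live Triton, where the open circles of DDIT3 and TRIB3 are bounds set by a floor of 3 counts.

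In Triton lysates the fixed cells had far less of most members than the live cells. Of the 10 members, 9 passed 2-fold downwards in fixed Triton cells against live Triton cells and 6 did so in both library sets; of all genes tested, 61.3% were past that fold and 48.1% in both sets, so most of the transcriptome was lower as well. None was more than 2-fold higher, against 11.0% of all genes, and 3.16% in both sets. The median log2 fold of the members was -3.71, against -1.74 over all genes. The fixed Triton cells were also those with the fewest genes detected and the largest shares of TVAS5 and ribosomal RNA rows. Totals without such rows were among the alternatives run, for which the closing section gives the range of the count. The cause of the lower folds was not tested.

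DDIT3 and TRIB3 had no count in any of the 7 fixed Triton cells. DDIT3 was at 0, 13.2 and 43.3 CPM at the lowest, median and highest of the 11 live Triton cells, and was at least 137.6-fold lower in fixed Triton cells, with the floor of 3 counts taken over the group. TRIB3 was in 4 of the 11 live Triton cells, up to 52.5 CPM, and was at least 98.1-fold lower; without live Triton replicate 7 the bound was 52.8-fold. EIF2AK3 had 2 counts, both in fixed Triton replicate 2, against 880 counts in live Triton cells. The ratio was 222-fold lower with a counting interval of 61.2 to 1834. It was 141-fold (38.7 to 1165) without live Triton replicate 11, and at least 124-fold without fixed Triton replicate 2, which leaves no count.

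The other targets were carried by 1 fixed Triton cell each. ASNS was at 0, 0.250 and 119 CPM in fixed Triton cells, against 145, 258 and 497 CPM in live Triton cells. Its log2 fold of -3.64, with -2.87 in set 1 and -5.41 in set 2, was -6.19 without fixed Triton replicate 2. CHAC1 had 87.7 CPM in fixed Triton replicate 3 and at most 0.250 CPM in the other 6, against 0.232, 42.0 and 288 CPM in live Triton cells. SESN2 had 24.8 CPM in the same replicate 3 and at most 0.218 CPM in the other 6, against 0, 30.0 and 92.8 CPM in live Triton cells. Their log2 folds were -3.21 and -3.92. Without that cell the group held 2 counts of CHAC1, a level 1220-fold lower than in live Triton cells (counting interval 338 to 10076), and 1 count of SESN2, 1140-fold lower (204 to 45061).

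Among the members that are not kinases, ATF4 was the best kept. It was at 302, 294, 140 and 118 CPM in 4 fixed Triton cells, at 23.1 CPM in another and at 0 in the last 2, against 119, 259.5 and 484 CPM at the lowest, median and highest live Triton cell. The log2 fold was -1.25, with -0.96 in set 1 and -1.28 in set 2. Leaving out fixed Triton replicate 2 alone put it at -0.99, just inside 2-fold. With all cells kept, the fold of ATF4 was also inside 2-fold when totals were rescaled by TMM or by median of ratios.

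The kinases differed among themselves in this comparison. EIF2AK4 was the only member that was not past 2-fold, with 0, 14.4 and 275 CPM in fixed Triton cells and 22.3, 57.1 and 184 CPM in live Triton cells, a log2 fold of -0.79. That rested on fixed Triton replicate 4, which held 72.9% of the counts, and without it the log2 fold was -2.46. EIF2AK2 had counts in all 7 fixed Triton cells but at low level, 0.210, 1.53 and 9.12 CPM, against 0.349, 33.4 and 136 CPM in live Triton cells, and a log2 fold of -3.77 (-4.39 without fixed Triton replicate 5).

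EIF2AK1 was at 68.5 and 6.28 CPM in 2 fixed Triton cells and at 0 in the other 5, against 0.232, 31.0 and 92.6 CPM in live Triton cells. Its log2 fold of -2.12 was 1.03 in set 1, in set 2 it had no count in fixed Triton cells (a bound of -8.08), and -5.20 over both sets without fixed Triton replicate 3. Within live Triton cells EIF2AK1 ran from 0.232 to 15.3 CPM in the 5 cells of set 1. It ran from 31.0 to 92.6 CPM in the 6 cells of set 2. How many of all genes were split by set in this way was not counted.

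The wider lists are read here against the 61.3% of all genes past 2-fold lower in fixed over live Triton. All 11 measured genes of the other unfolded protein response arms were past 2-fold lower against live Triton cells, with a median log2 fold of -6.95 when genes at 0 counts are set to the floor. HERPUD1, a factor of endoplasmic reticulum degradation, was lowest, with 1 count in fixed Triton cells against 5452 in live Triton cells, or 2748-fold lower (counting interval 493 to 108570). Of the tRNA charging genes 12 of 13 were lower (median -2.41; TARS -4.26, EPRS -0.76), and of the synthesis genes 9 of 13 were lower, a share near that of all genes. In the same list MTHFD1L was higher at 1.61, with 1.87 in set 1 and -1.63 in set 2, which have opposite signs. Of the 8 eIF2 and eIF2B subunits only 3 were past the fold, with a median of -0.91, and EIF2S2, the beta subunit of eIF2, was kept at 209.8 CPM against 309 CPM in live Triton cells. PPP1CB, a catalytic subunit of the phosphatase, stood at 849 CPM in fixed and 635 CPM in live Triton cells. PPP1R15A stood at 4.15 CPM against 23.0 CPM in live Triton cells, a log2 fold of -2.47, with no count in set 1 of fixed Triton (a bound of -7.08) and -1.18 in set 2.

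**Figure D5:**
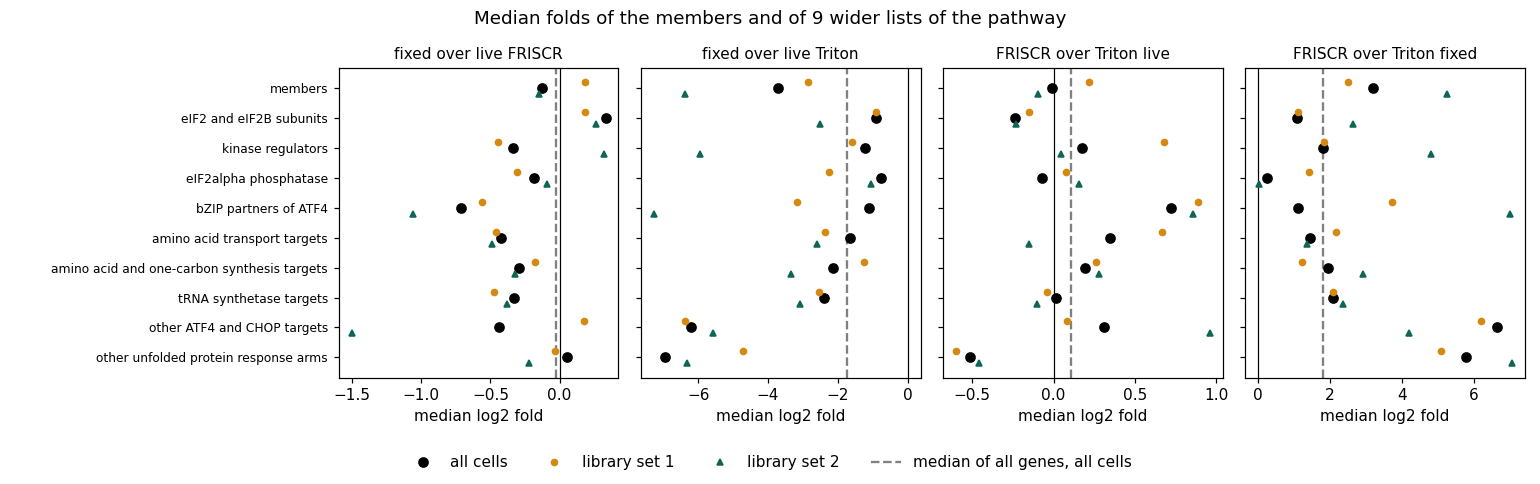
Median log2 fold of the 10 members and of 9 wider lists in 4 comparisons, over all cells (black) and in each library set, with a dashed line at the median of all genes. In fixed over live Triton the eIF2 and eIF2B subunits have a median of -0.91 and the other unfolded protein response arms one of -6.95.

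The 2 lysis methods were compared last, in live cells and in fixed cells. In live cells 1 of 10 members was more than 2-fold higher with FRISCR than with Triton, 0 of them in both sets, and none was lower; 9.72% of all genes were past the higher fold, 4.18% in both sets, 4.86% past the lower fold and 1.98% past it in both sets. The member was EIF2AK1, at 81.1 CPM summed in live FRISCR cells (79.0 to 83.2) and 38.5 CPM in live Triton cells (37.0 to 40.2), a log2 fold of 1.07. This was 3.10 in set 1 and 0.60 in set 2, and it was below 1, at 0.93 to 0.99, without any of 8 cells (live FRISCR replicates 3, 14 and 15 and live Triton replicates 1 to 5). ATF4 was at 0.58 (0.95 and 0.44), with 3 of 15 live FRISCR cells below the live Triton median. ASNS (-0.05), EIF2AK3 (-0.09) and TRIB3 (0.04) had log2 folds near 0, although leaving out live Triton replicate 11 put EIF2AK3 at 0.57. The value of TRIB3 joined opposite sets, with -1.23 in set 2 and, in set 1, 477 counts in live FRISCR against 1 count in live Triton cells, or 332-fold higher in live FRISCR (counting interval 59.3 to 13133). Without live Triton replicate 7 it was 0.93, and without live FRISCR replicate 4 it was -0.60. DDIT3 was lowest at -0.90, with summed levels of 7.60 CPM in live FRISCR and 14.2 CPM in live Triton cells, and was past -1 without any of 9 cells, reaching -1.18 without live FRISCR replicate 10. The median over the members was -0.01, against 0.11 over all genes.

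In fixed cells all 10 members were more than 2-fold higher with FRISCR than with Triton, 9 of them in both sets, where 62.8% of all genes were past the fold and 48.9% in both sets. None was lower, against 9.66% of all genes and 2.87% in both sets. The median log2 fold was 3.19, against 1.80 over all genes. When totals were rescaled by TMM or by median of ratios, all folds were lower alike. ATF4 and EIF2AK4 were then less than 2-fold higher. The folds ran from 1.29 for EIF2AK4 and 1.42 for ATF4 to 6.92 for EIF2AK3, and DDIT3 and TRIB3 were at least 132.1-fold and at least 152.3-fold higher in fixed FRISCR cells. Several of these rested on single cells: EIF2AK4 stood at 2.96 without fixed Triton replicate 4, and EIF2AK3, from 2 Triton counts, at a bound of 6.08 without replicate 2. EIF2AK1 was at 3.07, or 6.16 without fixed Triton replicate 3, and EIF2AK2 at 2.27, with 1.62 without fixed FRISCR replicate 11 and 2.89 without fixed Triton replicate 5. The TRIB3 bound was 79.7-fold without fixed FRISCR replicate 3. ASNS was at 225 CPM in fixed FRISCR and 22.8 CPM in fixed Triton cells (log2 3.30, or 5.85 without fixed Triton replicate 2), CHAC1 at 73.1 and 10.3 CPM and SESN2 at 48.8 and 2.92 CPM. This comparison shares its fixed Triton cells with the one before, and the same single cells carry it: without fixed Triton replicate 3 CHAC1 was 941-fold higher in fixed FRISCR cells (counting interval 260.4 to 7774), from 2 Triton counts, and SESN2 1256-fold higher (225 to 49629), from 1.

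The fixed over live folds under the 2 lysis methods were set side by side. The log2 fold of fixed over live FRISCR was subtracted from that of fixed over live Triton. This difference was below 0 for all 10 members, but the median over all genes was -1.70, so most genes lay below 0 as well. ATF4 (-0.84) was nearest to 0, and EIF2AK2 was at -1.72. EIF2AK4 was at -1.47, which rests on fixed Triton replicate 4 as described above. EIF2AK2 was low in both kinds of fixed cell, with 13.1 CPM in fixed FRISCR and 2.71 CPM in fixed Triton cells, where live FRISCR cells had 54.3 CPM and live Triton cells 37.0 CPM. In fixed over live FRISCR 2.13% of all genes tested had a lower fold than EIF2AK2. In fixed over live Triton 30.7% did, and 61.3% were past 2-fold lower, so the low Triton level is not particular to EIF2AK2. DDIT3 was farthest at -7.94, which rests on a bound; TRIB3, at -7.22, rests on one too, and EIF2AK3, at -7.01, on 2 counts. Among the members with a value in both library sets, only EIF2AK1 changed sign, with 1.44 in set 1 and a bound of -8.11 in set 2. TRIB3 had no value in set 1.

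The wider lists followed the lysis methods unevenly. In live cells, none of the 13 tRNA charging genes differed by 2-fold between FRISCR and Triton, and their median was 0.01. EIF2B5, the catalytic subunit of the exchange factor, was at 29.4 CPM in live FRISCR and 11.6 CPM in live Triton cells, a log2 fold of 1.34 that passed 2-fold in both sets. ATF3, a stress-induced partner of ATF4, had 28.0 CPM in live FRISCR and 10.3 CPM in live Triton cells, a log2 fold of 1.44, with 2.64 in set 1 and 0.98 in set 2. In the other unfolded protein response arms 1 gene was higher and 2 were lower of 11, with MBTPS2 at 1.40 and EDEM1 at -1.20.

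In fixed cells, where 62.8% of all genes were past 2-fold higher with FRISCR, all 11 of those genes were higher with FRISCR than with Triton (median 5.78), and so were 9 of 13 tRNA charging genes (median 2.10), 8 of 13 synthesis genes (median 1.96), 5 of 7 transporters (median 1.45) and 4 of 8 eIF2 and eIF2B subunits (median 1.09). The counts for tRNA charging, synthesis and transport lie near the share of all genes. Of the 5 phosphatase genes 1 was higher, and their median was 0.26. PPP1R15A was at 4.98 CPM in fixed FRISCR and 4.15 CPM in fixed Triton cells, but the sets ran opposite ways. Set 1 had 9.93 CPM in fixed FRISCR and 0 in fixed Triton cells, and set 2 had 0.144 CPM in fixed FRISCR and 9.53 CPM in fixed Triton cells. BCL2L11 was at 1.08 CPM in fixed FRISCR and 28.0 CPM in fixed Triton cells, a log2 fold of -4.70. All of its Triton counts came from set 2, with 816 in fixed and 245 in live Triton cells.

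Reads of neighbouring genes could not be separated everywhere, since the counting is not stated to use strand. In the GENCODE 29 annotation of GRCh38, EIF2AK1 on chromosome 7 overlaps AIMP2 on the opposite strand, which had 124 CPM over all cells. DDIT3 on chromosome 12 overlaps MARS on the opposite strand, a tRNA synthetase at 498.5 CPM over all cells. ATF4 on chromosome 22 and ASNS on chromosome 7 each have 4 annotated pseudogenes, none of which has a row in the tables. How reads were shared between these copies is not given in the sources used here.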

How the data were processed

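The authors deposited a table of estimated counts per gene and a table of TPM for the 45 cells, which name genes by symbol. Per the labels' protocols, libraries were made by Smart-Seq2 and Nextera XT; the extract protocol otherwise describes cortical tissue. Per the submitters' processing notes the builds are GRCh37 and hg19; the aligner, counter, strand setting and gene models are steps not given in the sources used here. Of the values above 0 in the count table, 40.3% were not whole, and estimated counts were rounded. Cells were grouped by the sample group label and by the library number in the title. For each group the counts of its cells were added and divided by their added totals (CPM). With 1 culture per group no test was run: folds have exact 95% binomial intervals and levels exact Poisson intervals, for counting error only, since reads carry no molecular identifiers and repeat molecules. A group at 0 counts was set to a floor of 3 counts. Folds were read over genes averaging 5 CPM or more across the 4 groups, which all 10 members passed. Correlations used log2(CPM + 1) with group and library set means removed. All members are named; for each detected in 60% of 38 cells the 3 most correlated genes of at least 20 CPM were taken, and of each wider list the 2 most abundant genes and the highest and lowest fold were eligible. The members and lists were chosen with earlier results of these data known. Alternatives were scaling by TMM (edgeR 4.0.16) or median of ratios (DESeq2 1.42.0, 2079 genes with a count in every cell), totals without the ribosomal RNA rows and 5 abundant rows, mean CPM, mean TPM, unrounded counts, other filters, each library set and each cell left out. The fold and interval steps were tested on simulated data. Python 3.11.15, numpy 2.4.6, pandas 2.3.3, scipy 1.17.1, matplotlib 3.10.9 and R 4.3.3 were used.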

Additional observations from a re-analysis of the deposited data

Results flagged for a closer look

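The 7 fixed Triton cells are the only group of 4 to 10 cells, and in 6 of the 8 members with any count there the highest cell stood far from the next by Dixon's criterion at 95%; chance marks about 1 in 20 groups of normally spread values, and since these groups hold many zeros the 6 of 8 is not read against that rate. EIF2AK1 had 68.5 CPM, CHAC1 87.7 CPM and SESN2 24.8 CPM in replicate 3. ASNS had 119 CPM and EIF2AK3 0.42 CPM (2 counts) in replicate 2, and EIF2AK4 had 275 CPM in replicate 4. The next highest cells had 6.28 CPM of EIF2AK1, 0.250 CPM of CHAC1, 0.218 CPM of SESN2, 20.1 CPM of ASNS, 0 of EIF2AK3 and 60.6 CPM of EIF2AK4. ATF4 and EIF2AK2 had no such cell. Replicate 3 had the most genes detected of the 7, 6637, and 5 members at 5 CPM or more, while replicates 1, 2 and 7 had 1 each.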

How the results depend on the processing

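No paired analysis was possible because the replicate numbers were given in accession order and name no shared cell or culture. The count of 9 members past 2-fold lower in fixed over live Triton was 6 to 10 under the alternatives run (6 in set 1 alone, in both sets together and among genes of at least 20 CPM), and 8 to 10 with each cell left out. The count of 10 higher with FRISCR than with Triton in fixed cells stayed within 1.5 times. ATF4 and EIF2AK4 were not among them under TMM or median-of-ratios scaling. Fixed over live FRISCR gave 2 lower in set 2 alone and 1 higher in set 1 alone, and 1 to 2 lower and 0 to 1 higher with a cell left out. Fixed over live Triton gave 1 higher in set 1 alone, EIF2AK1, whose log2 fold there was 1.03, reversed from -2.12. FRISCR over Triton in live cells gave 0 higher with totals without the abundant rows and in both sets together, and 2 in set 1 alone; it gave 1 lower with those totals and in set 2 alone; both counts were 0 to 1 with a cell left out. The cause of these changes was not tested. The stricter core gave 1 promoter. The 7 fixed Triton cells limit every fold that uses them.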
